A study of Mus musculus with 11 samples.

Results

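The genes described here are 29 genes of sterol and fatty acid synthesis, measured on Affymetrix whole-transcript arrays in mouse thymus during the development of MYC-driven thymic lymphoma. They were chosen by name: probe sets whose only annotated symbol is that of a listed gene were taken, with 1 probe set per gene, the one with the highest mean. All 29 were measured, among 28939 probe sets tested, which carry the symbols of 19938 genes. In role order they comprise 5 enzymes of the mevalonate pathway, 4 that carry farnesyl diphosphate to lanosterol, 8 that carry lanosterol to cholesterol, 5 controllers of the sterol regulatory element-binding proteins (SREBPs), 6 enzymes of fatty acid synthesis and 1 sterol carrier. The genes were chosen with earlier results of these data known, and the measured values chose the probe set that stands for each.

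All mice were of the FVB strain and all carried EμSR-tTA, a tetracycline transactivator expressed in blood cells, together with a Rosa26LOXPEGFP reporter. Normal thymocytes (n = 3, taken at 24 days of age) also carried Teto-Cre, were Dnmt3b+/+ and lacked the MYC transgene. Wild-type lymphomas (n = 3) carried Teto-MYC and floxed alleles, Dnmt3bF/F, without Cre. Dnmt3b-deficient lymphomas (n = 3) carried Teto-MYC and Teto-Cre and are labelled Dnmt3b-/-. Pre-tumor thymocytes (n = 2, taken at 24 days) had that same genotype and were sorted for EGFP, whereas tumors were collected unsorted once disease was apparent; no label says whether normal thymocytes were sorted. Cre thus goes with the Dnmt3b genotype among the tumors, and MYC, with everything that follows it, sets all 3 other groups apart from the normal thymocytes. Other features differ from normal too: Cre and the floxed alleles in wild-type lymphomas, and Dnmt3b in the Dnmt3b-deficient lymphomas and pre-tumor thymocytes. Tumors also differ in the time of collection. In comparisons with normal thymocytes these features cannot be told apart from MYC. The titles call the samples biological replicates, and p-values measure the spread between them. The lymphomas are called tumors below, and the thymocyte groups normal thymus and pre-tumor samples.

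Cholesterol and fatty acids are both built from cytosolic acetyl-CoA. The SREBP transcription factors, encoded by Srebf1 and Srebf2, are bound by the escort protein Scap. The retention proteins Insig1 and Insig2 hold this complex in the endoplasmic reticulum while sterols are plentiful. When sterols fall short the SREBPs are released and switch on the sterol and fatty acid enzymes, and Insig1 is itself a target. Growing and dividing lymphocytes need both kinds of lipid for new membrane.

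Levels are log2 values with a floor at 3.32, the logarithm of 10. A difference is the mean log2 level of the first group minus that of the second, and a gene is said to have risen or fallen where it passed limma, with an adjusted p over all 28939 probe sets under 0.05. The Dnmt3b probe set lay between 5.07 and 5.70 on all 11 arrays; which exons it reads is not stated, so it does not check the genotype labels. The mouse Myc probe set lay between 7.77 and 8.13 in normal thymus and between 4.29 and 5.87 in the other groups. Arrays of a group correlated with r from 0.973 to 0.991. The measured T lineage markers (9 genes) averaged 10.02 to 10.13 in normal thymus and 8.07 to 9.06 elsewhere. Markers of the double-positive thymocyte stage averaged 9.27 to 9.49 in normal thymus, 7.15 to 8.12 in pre-tumor samples, 5.42 to 6.26 in wild-type and 6.22 to 6.49 in Dnmt3b-deficient tumors. Markers of adipocytes, cells that make much lipid, averaged 4.02 to 4.40 on all arrays. Fabp4 was at the floor on 11, Lep on 10 and Adipoq on 8 of 11 arrays. Lipe was brighter, with means of 6.48 in normal thymus, 5.78 in wild-type tumors, 5.80 in Dnmt3b-deficient tumors and 5.53 in pre-tumor samples. Among the 9 measured, 1 fell (11.1%) and 0 rose in each comparison with normal, beside 9.88% to 10.5% of all probe sets that fell. Neutrophil markers averaged 6.68, 6.52 and 4.22 in the wild-type tumors and 4.10, 6.13 and 4.40 in the Dnmt3b-deficient ones, against 4.93 to 5.40 in normal and 4.02 to 4.07 in pre-tumor samples. These marker levels moved with the groups, and their part in the differences below was not tested. In bulk RNA, fewer cells of a type and less RNA per cell cannot be told apart.

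Promoter windows were available for 23 of the 29 genes, in a RefSeq table of build GRCm38.p6 that covers 250 bases before to 50 after each annotated start. Of these, 5 are shown because they belong to genes that moved in opposite directions: Hmgcs1, Idi1 and Fasn, which rose in at least 1 group, and Dhcr7 and Srebf1, which fell in every group. For a gene with several starts the window with the most motif matches is given; Srebf1 has 2 such windows with 3 matches each, and the first is given. Capitals mark matches, on either strand and with overlaps allowed, to CCAAT (the site of the SREBP partner NF-Y), GGGCGG (a GC box), CACGTG (an E-box, which MYC and SREBPs can bind) and TCACNCCAC (a sterol regulatory element).
Hmgcs1: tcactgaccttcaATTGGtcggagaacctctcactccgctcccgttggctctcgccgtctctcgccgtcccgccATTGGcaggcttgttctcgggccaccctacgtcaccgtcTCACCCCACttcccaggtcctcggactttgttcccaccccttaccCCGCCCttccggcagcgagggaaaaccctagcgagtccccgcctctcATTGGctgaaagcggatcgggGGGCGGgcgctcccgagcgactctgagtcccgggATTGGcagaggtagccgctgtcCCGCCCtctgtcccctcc
Idi1: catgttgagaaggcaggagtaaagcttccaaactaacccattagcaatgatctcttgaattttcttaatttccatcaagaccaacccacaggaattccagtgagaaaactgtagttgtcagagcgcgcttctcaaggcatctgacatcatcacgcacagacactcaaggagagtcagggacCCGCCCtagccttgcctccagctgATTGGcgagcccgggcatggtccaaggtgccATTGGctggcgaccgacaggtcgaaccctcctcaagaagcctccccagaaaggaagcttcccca
Fasn: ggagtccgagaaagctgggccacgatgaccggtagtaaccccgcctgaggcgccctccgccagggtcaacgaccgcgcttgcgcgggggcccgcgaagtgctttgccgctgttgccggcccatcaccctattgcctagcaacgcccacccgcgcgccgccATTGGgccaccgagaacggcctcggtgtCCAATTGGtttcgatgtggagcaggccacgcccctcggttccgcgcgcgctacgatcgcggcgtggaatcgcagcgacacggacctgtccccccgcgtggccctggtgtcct
Dhcr7: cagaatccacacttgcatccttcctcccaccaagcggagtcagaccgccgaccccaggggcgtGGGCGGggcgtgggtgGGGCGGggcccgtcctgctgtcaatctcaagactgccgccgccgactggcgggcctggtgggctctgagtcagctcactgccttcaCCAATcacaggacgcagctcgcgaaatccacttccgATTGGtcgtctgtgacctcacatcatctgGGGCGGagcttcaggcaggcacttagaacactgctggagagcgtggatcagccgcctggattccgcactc
Srebf1: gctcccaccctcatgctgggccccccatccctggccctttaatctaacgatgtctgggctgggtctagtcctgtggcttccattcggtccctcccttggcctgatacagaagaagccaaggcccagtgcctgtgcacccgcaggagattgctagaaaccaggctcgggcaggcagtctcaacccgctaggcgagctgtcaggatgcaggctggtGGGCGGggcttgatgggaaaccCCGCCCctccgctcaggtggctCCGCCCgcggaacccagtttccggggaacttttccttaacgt
The windows lie at chr13:119690101-119690400 (plus strand), chr13:8885356-8885655 (plus strand), chr11:120824498-120824797 (minus strand), chr7:143829964-143830263 (plus strand) and chr11:60220578-60220877 (minus strand), and each is written 5′ to 3′ on its gene's strand. The Hmgcs1 window holds 4 CCAAT matches, 3 GC boxes and 1 sterol regulatory element. Idi1 has 2 CCAAT matches and 1 GC box, Fasn 3 CCAAT matches, Dhcr7 2 CCAAT matches and 3 GC boxes, and the Srebf1 window shown 3 GC boxes. The other Srebf1 window, at chr11:60210422-60210721, holds 1 CCAAT match and 2 GC boxes. Dhcr7 also has a window, not shown, at chr7:143823149-143823448 that holds 1 E-box, which the window shown lacks.

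CCAAT lay in a window of 20 of the 23 genes (87.0%), beside 41.1% of all 27025 genes in the table, and GGGCGG in 19 (82.6%), beside 38.2%. CACGTG lay in 5 (21.7%, against 8.09%): Hsd17b7, Insig1, Dhcr7, Sc5d and Scap. TCACNCCAC lay in 1, Hmgcs1 (4.35%, against 1.44%). By direction, CCAAT lay in 5 of 7 genes that rose in any group, 4 of 4 that fell and 11 of 12 that did neither, and GGGCGG in 4, 4 and 11. Acaca and Elovl6, which rose, had no match in their single windows. A match describes letters only, and genes with several windows have more chances to hold one.

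In wild-type tumors, 8 of the 29 genes rose against normal thymus (27.6%, beside 9.58% of all probe sets): Hmgcs1, Idi1, Cyp51, Sc5d, Acaca, Fasn, Elovl6 and Stard4. The 3 that fell (10.3%, equal to the background of 10.3%) were Dhcr7, Srebf1 and Insig2. In Dnmt3b-deficient tumors 6 rose (20.7%, beside 9.70%), namely Idi1, Sc5d, Acaca, Fasn, Elovl6 and Stard4, and 4 fell (13.8%, beside 10.5%), namely Mvk, Dhcr7, Srebf1 and Insig2. In pre-tumor samples 5 rose (17.2%, beside 9.69%), namely Idi1, Acaca, Fasn, Elovl6 and Stard4, and 3 fell (10.3%, beside 9.88%), again Dhcr7, Srebf1 and Insig2. These 3 comparisons share the normal arrays. The median difference of the 29 genes was 0.17 in wild-type tumors, 0.10 in Dnmt3b-deficient tumors and 0.00 in pre-tumor samples, beside 0.00, 0.00 and -0.02 for all probe sets.

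**Figure D1:**
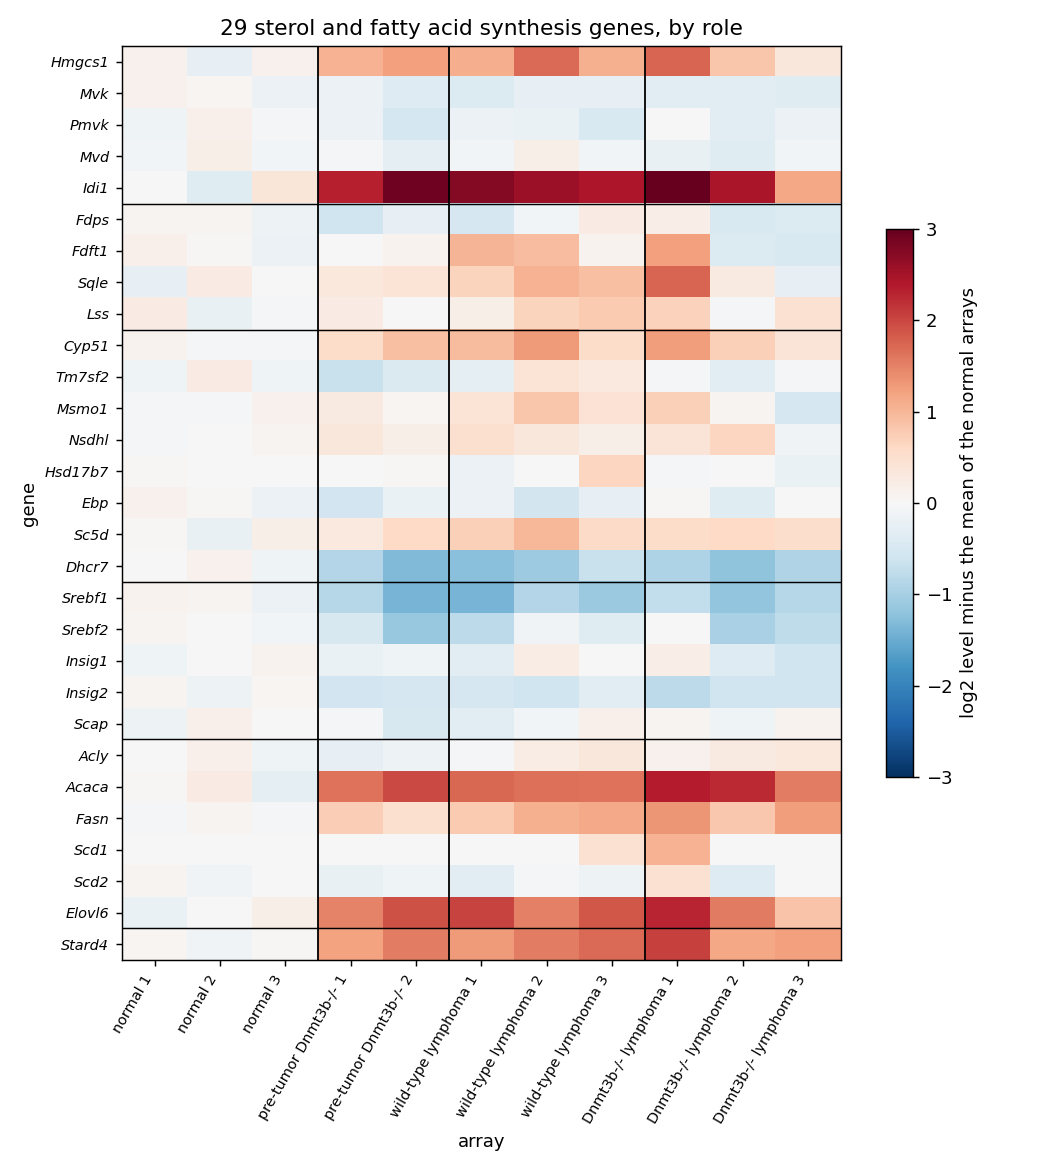
Log2 level of each of the 29 genes (rows, by role, with lines between roles) on each of the 11 arrays (columns) minus the mean of the 3 normal arrays; red is higher and blue lower. Idi1, Hmgcs1, Cyp51, Sc5d, Acaca, Fasn, Elovl6 and Stard4 are red, and Dhcr7, Srebf1 and Insig2 blue, on all 8 arrays that carry the MYC transgene, while most other rows are pale or mixed.

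In the mevalonate pathway, which makes the isoprene unit, the outer steps stood above normal and the kinases between them did not. Idi1, which isomerises isopentenyl diphosphate, had levels of 5.06, 4.68 and 5.42 in normal thymus, 7.81, 7.62 and 7.48 in wild-type tumors, 8.10, 7.51 and 6.21 in Dnmt3b-deficient tumors and 7.38 and 7.98 in pre-tumor samples. Every array with MYC lay above every normal one, and Dnmt3b-deficient replicate 3 was the lowest of them. The rise was 2.58 (5.99-fold, SE 0.46, adjusted p = 0.00769) in wild-type tumors, 2.22 (4.66-fold, SE 0.46, adjusted p = 0.0131) in Dnmt3b-deficient tumors and 2.62 (6.16-fold, SE 0.51, adjusted p = 0.0127) in pre-tumor samples by limma. The Dnmt3b-deficient call was lost without normal replicate 2 (adjusted p = 0.0502) and the pre-tumor call without pre-tumor replicate 2 (adjusted p = 0.107). The 10 probe sets next to this one by ID that have a placed gene all lie off the Idi1 chromosome. A second Idi1 probe set, whose neighbours lie on it, rose by 2.57, 2.12 and 2.63 in the same groups (adjusted p = 0.00648, 0.0129 and 0.0106).

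Hmgcs1, which condenses acetyl units into HMG-CoA at the head of the pathway, had levels of 5.89, 5.52 and 5.91 in normal thymus, 6.86, 7.46 and 6.84 in wild-type tumors, 7.53, 6.60 and 6.11 in Dnmt3b-deficient tumors and 6.82 and 6.99 in pre-tumor samples. No array with MYC overlapped the normal range. The wild-type rise of 1.28 (SE 0.35) narrowly passed (adjusted p = 0.0421), whereas the differences of 0.97 in Dnmt3b-deficient tumors and 1.13 in pre-tumor samples did not (adjusted p = 0.106 and 0.0919). That call did not hold without any one of normal replicates 1, 2 and 3 (adjusted p = 0.0856, 0.131 and 0.0806), wild-type replicates 1, 2 and 3 (0.0870, 0.126 and 0.0679), Dnmt3b-deficient replicate 2 (0.0634) or pre-tumor replicates 1 and 2 (0.0631 and 0.0631). Conversely, the Dnmt3b-deficient difference passed without that group's replicate 3 (0.0376) and the pre-tumor one without Dnmt3b-deficient replicate 1 (0.0253). Hmgcs1 thus lay near the threshold. Its wild-type difference stayed between 1.07 and 1.39 with 1 array left out.

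The mevalonate kinase Mvk fell by 0.33 in Dnmt3b-deficient tumors (adjusted p = 0.0467), with differences of -0.30 and -0.28 in wild-type tumors and pre-tumor samples (adjusted p = 0.0693 and 0.115). This call held in 7 of 25 other settings, the fewest of all calls among the 29 genes. It was lost without normal replicate 1 or 2 (adjusted p = 0.133 and 0.141), without any one of wild-type replicates 1, 2 and 3 (0.0551, 0.0698 and 0.0679) and without any one of Dnmt3b-deficient replicates 1, 2 and 3 (0.0940, 0.110 and 0.123), while without normal replicate 3 the wild-type and pre-tumor differences of Mvk passed (0.0203 and 0.0315). Pmvk, the kinase that follows, differed from normal by -0.28, -0.18 and -0.36 in wild-type tumors, Dnmt3b-deficient tumors and pre-tumor samples, and Mvd, the decarboxylase, by 0.00, -0.23 and -0.17; none of these passed. Mvd took an identical value on 5 of the 11 arrays to 9 decimals, so its spread is only roughly measured.

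None of the 4 enzymes from farnesyl diphosphate to lanosterol passed in any group. Fdps, which makes farnesyl diphosphate, differed from normal by -0.11, -0.23 and -0.42 in wild-type tumors, Dnmt3b-deficient tumors and pre-tumor samples. Fdft1, squalene synthase, differed by 0.69, 0.12 and 0.06 (0.70, 0.24 and 0.04 on its other probe set), and Sqle, squalene epoxidase, by 0.87, 0.60 and 0.37. The spread was wide in the Dnmt3b-deficient group: Sqle stood at 7.84 in replicate 1 but at 6.36 and 5.85 in the others, beside 5.84, 6.33 and 6.07 in normal thymus. Without that replicate the wild-type difference of Sqle passed (adjusted p = 0.0206, against 0.254 with it), since its spread enters the fit. Lss, which closes the sterol ring, differed by 0.54, 0.37 and 0.12 (adjusted p = 0.162 at the lowest). The 95% interval of the wild-type Fdft1 difference ran from -0.40 to 1.77, so a rise of the size seen for Hmgcs1 lay within it.

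**Figure D2:**
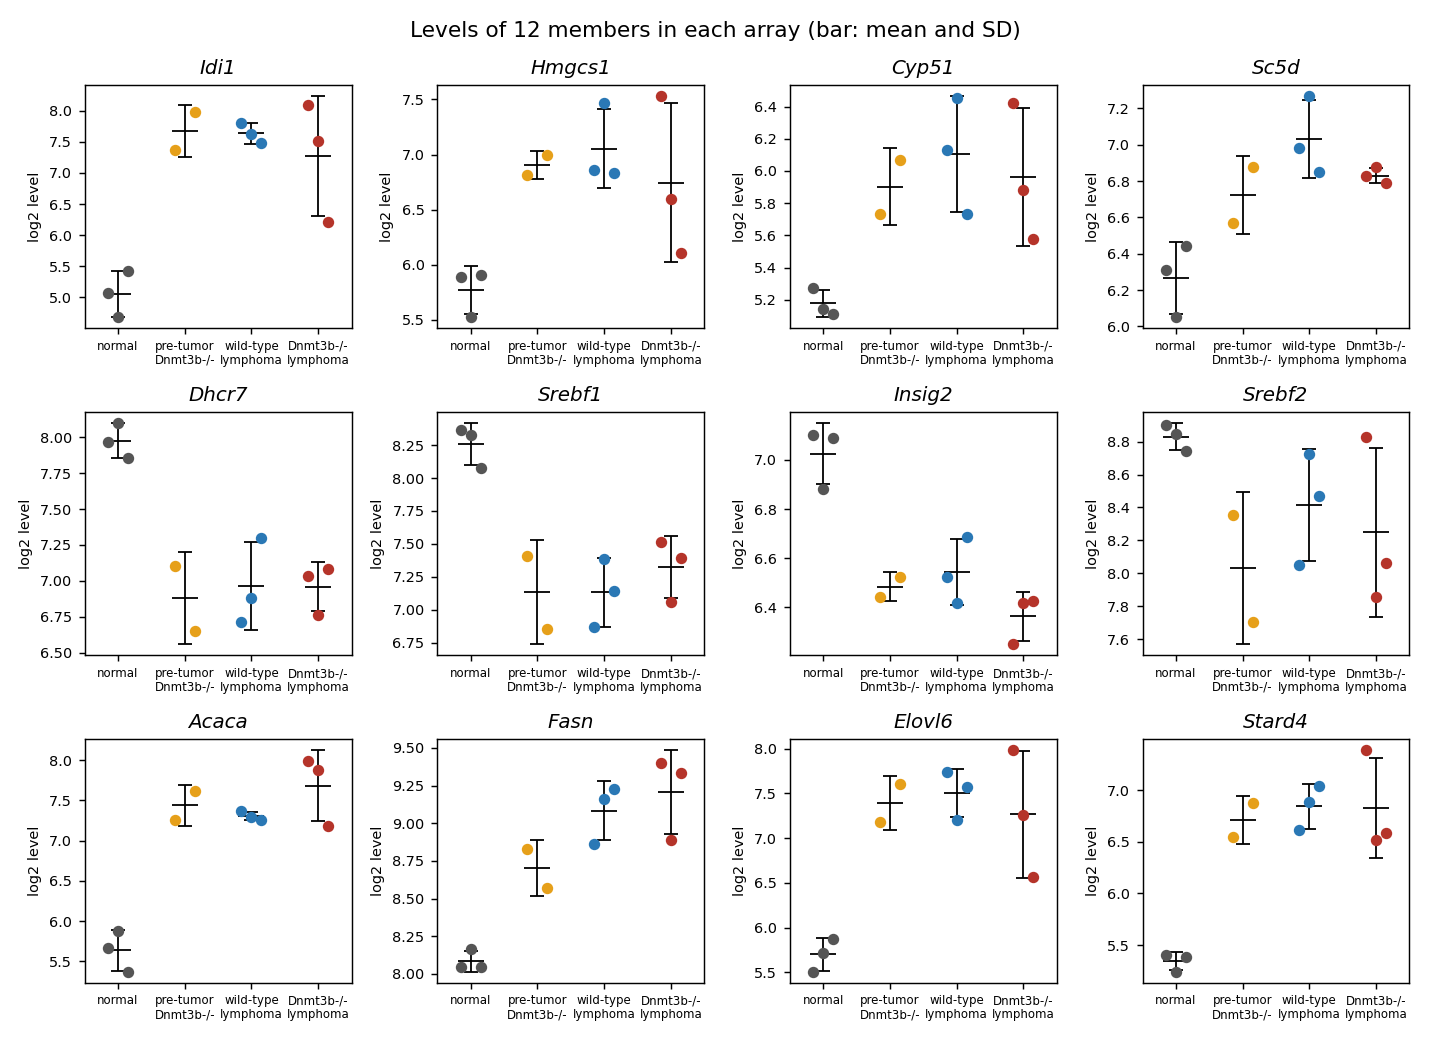
Log2 level (y axis, scaled separately for each gene) of 12 of the genes on each array, in normal, pre-tumor, wild-type tumor and Dnmt3b-deficient tumor samples; points are arrays and bars the mean and SD. Idi1, Hmgcs1, Cyp51, Sc5d, Acaca, Fasn, Elovl6 and Stard4 separate all arrays with MYC from normal upward. Dhcr7, Srebf1 and Insig2 do so downward, and Srebf2 overlaps in the Dnmt3b-deficient group.

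Past lanosterol, members rose, fell or stayed within their spread. Cyp51, the demethylase that takes up lanosterol, had levels of 5.27, 5.14 and 5.11 in normal thymus, 6.13, 6.45 and 5.73 in wild-type tumors, 6.43, 5.88 and 5.57 in Dnmt3b-deficient tumors and 5.73 and 6.07 in pre-tumor samples. All arrays with MYC lay above all normal ones. It rose by 0.93 in wild-type tumors (1.90-fold, SE 0.25, adjusted p = 0.0382), and its differences of 0.78 and 0.73 in Dnmt3b-deficient tumors and pre-tumor samples did not pass (adjusted p = 0.0686 and 0.121). The wild-type call was lost without normal replicates 1, 2 or 3 (adjusted p = 0.0772, 0.107 and 0.0974), wild-type replicates 1 or 2 (0.108 and 0.113), Dnmt3b-deficient replicate 2 (0.0594) or pre-tumor replicates 1 or 2 (0.0517 each), and without Dnmt3b-deficient replicate 3 the Cyp51 difference of that group passed (0.0404).

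Sc5d, a sterol desaturase near the end of the pathway, rose by 0.76 in wild-type tumors (adjusted p = 0.00880) and by 0.56 in Dnmt3b-deficient tumors (adjusted p = 0.0278). Its levels were 6.31, 6.05 and 6.44 in normal thymus, 6.98, 7.27 and 6.85 in wild-type tumors, 6.83, 6.87 and 6.79 in Dnmt3b-deficient tumors, and 6.57 and 6.88 in pre-tumor samples, where the difference of 0.46 did not pass (adjusted p = 0.0880). Normal arrays lay below all others. The Dnmt3b-deficient call was lost without normal replicates 1 or 2 (adjusted p = 0.0649 and 0.0849) or any of the 3 Dnmt3b-deficient arrays (0.0705, 0.0872 and 0.0611).

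Dhcr7, the reductase that completes cholesterol from its last precursor, went the other way. It stood at 7.97, 8.10 and 7.86 in normal thymus, 6.71, 6.88 and 7.30 in wild-type tumors, 7.04, 6.77 and 7.08 in Dnmt3b-deficient tumors and 7.11 and 6.65 in pre-tumor samples. All 8 arrays with MYC were below all 3 normal arrays. The fall was by 1.01 in wild-type tumors (2.01-fold, SE 0.18, adjusted p = 0.00823), by 1.01 in Dnmt3b-deficient tumors (SE 0.18, adjusted p = 0.00733) and by 1.10 in pre-tumor samples (SE 0.20, adjusted p = 0.0107). The pre-tumor call was lost without pre-tumor replicate 2 (adjusted p = 0.0916).

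The other 5 enzymes of this stretch passed nowhere. In wild-type tumors, Dnmt3b-deficient tumors and pre-tumor samples in turn, the methylsterol oxidase Msmo1 differed from normal by 0.56, 0.10 and 0.17, the dehydrogenase Nsdhl by 0.33, 0.31 and 0.25 and the ketosteroid reductase Hsd17b7 by 0.17, -0.09 and 0.01. The sterol reductase Tm7sf2 differed by 0.14, -0.14 and -0.56, and the sterol isomerase Ebp by -0.33, -0.10 and -0.38. Over the 17 sterol enzymes, 4 rose and 1 fell in wild-type tumors (9.58% of all probe sets rose and 10.3% fell). In Dnmt3b-deficient tumors 2 rose and 2 fell (9.70% and 10.5% of all probe sets), and in pre-tumor samples 1 rose and 1 fell (9.69% and 9.88%). Apart from the 4 that rose in wild-type tumors, these counts lie near those shares.

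Of the 5 SREBP controllers, Srebf1 and Insig2 fell in all 3 groups (40% of the list) and none rose in any. Among all probe sets, 10.3%, 10.5% and 9.88% fell in wild-type tumors, Dnmt3b-deficient tumors and pre-tumor samples. Srebf1, which encodes the SREBP forms tied mainly to fatty acid synthesis, stood at 8.37, 8.33 and 8.07 in normal thymus, 6.87, 7.39 and 7.14 in wild-type tumors, 7.52, 7.06 and 7.40 in Dnmt3b-deficient tumors and 7.41 and 6.85 in pre-tumor samples. No array with MYC reached the lowest normal array. It fell by 1.12 in wild-type tumors (2.18-fold, SE 0.20, adjusted p = 0.00777), by 0.93 in Dnmt3b-deficient tumors (1.91-fold, SE 0.20, adjusted p = 0.0153) and by 1.12 in pre-tumor samples (2.18-fold, SE 0.22, adjusted p = 0.0134). The Dnmt3b-deficient call was lost without normal replicates 1 or 2 (adjusted p = 0.0532 and 0.0549) or Dnmt3b-deficient replicate 2 (0.0530), and the pre-tumor call without pre-tumor replicate 2 (0.110).

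Srebf2, which encodes the form tied mainly to sterol synthesis, stood at 8.90, 8.85 and 8.74 in normal thymus, 8.05, 8.72 and 8.47 in wild-type tumors, 8.83, 7.86 and 8.06 in Dnmt3b-deficient tumors and 8.36 and 7.70 in pre-tumor samples. Dnmt3b-deficient replicate 1 lay within the normal range and the other 7 arrays with MYC below it. The differences of -0.41, -0.58 and -0.80 did not pass (adjusted p = 0.427, 0.254 and 0.147). Their 95% intervals ran from -1.11 to 0.28, from -1.27 to 0.11 and from -1.57 to -0.03, so the size of the Srebf1 fall in the same group lay just outside the first interval and within the others.

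Insig2, one of the proteins that retain SREBPs, had levels of 7.10, 6.88 and 7.09 in normal thymus, 6.52, 6.42 and 6.69 in wild-type tumors, 6.25, 6.42 and 6.43 in Dnmt3b-deficient tumors and 6.44 and 6.52 in pre-tumor samples. All arrays with MYC were below all normal arrays, by a small margin and with little spread. Insig2 fell by 0.48 in wild-type tumors (1.40-fold, SE 0.09, adjusted p = 0.00926), by 0.66 in Dnmt3b-deficient tumors (1.58-fold, SE 0.09, adjusted p = 0.00239) and by 0.54 in pre-tumor samples (1.46-fold, SE 0.10, adjusted p = 0.0104, but 0.0594 without pre-tumor replicate 2). Insig1, its SREBP-driven relative, stood at 7.31, 7.46 and 7.56 in normal thymus, 7.09, 7.66 and 7.43 in wild-type tumors, 7.63, 7.06 and 6.83 in Dnmt3b-deficient tumors and 7.23 and 7.31 in pre-tumor samples. Insig1 overlapped normal in every group, with differences of -0.05, -0.27 and -0.17. Scap, the escort, stood at 7.83, 8.13 and 7.98 in normal thymus, 7.67, 7.89 and 8.14 in wild-type tumors, 8.07, 7.85 and 8.08 in Dnmt3b-deficient tumors and 7.92 and 7.51 in pre-tumor samples. Scap also overlapped normal everywhere, with differences of -0.08, 0.02 and -0.27.

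Fatty acid synthesis genes rose in part: of the 6 enzymes, Acaca, Fasn and Elovl6 rose in all 3 groups (50% of the list). Of all probe sets, 9.58%, 9.70% and 9.69% rose in wild-type tumors, Dnmt3b-deficient tumors and pre-tumor samples. The pre-tumor call of Fasn held in 10 of 25 other settings. Acaca, the acetyl-CoA carboxylase that commits carbon to fatty acids, stood at 5.67, 5.88 and 5.37 in normal thymus, 7.37, 7.30 and 7.26 in wild-type tumors, 7.99, 7.88 and 7.18 in Dnmt3b-deficient tumors and 7.26 and 7.62 in pre-tumor samples. Every array with MYC lay above every normal array. It rose by 1.67 in wild-type tumors (3.17-fold, SE 0.23, adjusted p = 0.00283), by 2.04 in Dnmt3b-deficient tumors (4.12-fold, SE 0.23, adjusted p = 0.00115) and by 1.80 in pre-tumor samples (3.48-fold, SE 0.26, adjusted p = 0.00440), and passed in every fit that left out 1 array. This probe set too has no ID neighbour on its gene's chromosome, among 7 that are placed. A second Acaca probe set that has such neighbours rose by 1.28, 1.61 and 1.52 (adjusted p = 0.00329, 0.00122 and 0.00365).

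Elovl6, which lengthens the products of fatty acid synthase, had levels of 5.51, 5.72 and 5.88 in normal thymus, 7.73, 7.21 and 7.56 in wild-type tumors, 7.98, 7.26 and 6.56 in Dnmt3b-deficient tumors and 7.18 and 7.61 in pre-tumor samples. The normal arrays lay below all others. It rose by 1.80 in wild-type tumors (3.48-fold, SE 0.34, adjusted p = 0.00998), by 1.56 in Dnmt3b-deficient tumors (2.96-fold, SE 0.34, adjusted p = 0.0165) and by 1.69 in pre-tumor samples (3.23-fold, SE 0.38, adjusted p = 0.0206). The Dnmt3b-deficient call was lost without normal replicates 1 or 2 (adjusted p = 0.0564 and 0.0515) or Dnmt3b-deficient replicate 2 (0.0516), and the pre-tumor call without normal replicates 1 or 2 (0.0573 and 0.0566) or pre-tumor replicate 2 (0.155).

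Fasn, fatty acid synthase, had levels of 8.04, 8.16 and 8.05 in normal thymus, 8.86, 9.16 and 9.23 in wild-type tumors, 9.40, 8.89 and 9.33 in Dnmt3b-deficient tumors and 8.83 and 8.57 in pre-tumor samples. The pre-tumor arrays lay between the normal arrays and the lymphomas, with no overlap. It rose by 1.00 in wild-type tumors (2.00-fold, SE 0.16, adjusted p = 0.00455) and by 1.12 in Dnmt3b-deficient tumors (2.17-fold, SE 0.16, adjusted p = 0.00257). The pre-tumor rise of 0.62 (1.53-fold, SE 0.17) passed narrowly (adjusted p = 0.0452), and was lost without normal replicates 1, 2 or 3 (adjusted p = 0.103, 0.0858 and 0.102), wild-type replicates 2 or 3 (0.0689 and 0.0573), Dnmt3b-deficient replicate 3 (0.0601) or pre-tumor replicates 1 or 2 (0.207 and 0.114).

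The other 3 fatty acid enzymes passed in no group. Acly, which makes cytosolic acetyl-CoA from citrate and feeds both pathways, was bright everywhere (8.81 to 9.41) and differed from normal by 0.18, 0.24 and -0.21 in wild-type tumors, Dnmt3b-deficient tumors and pre-tumor samples. The desaturase Scd2 was bright too (9.41 to 10.25) and differed by -0.18, 0.04 and -0.17. Its relative Scd1 was at the floor on 9 of 11 arrays and above it only in wild-type replicate 3 (3.78) and Dnmt3b-deficient replicate 1 (4.37), so that most groups have only an upper limit for it.

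Stard4, a soluble carrier that moves cholesterol between membranes and is an SREBP target, rose in all 3 groups. Its levels were 5.40, 5.24 and 5.38 in normal thymus, 6.61, 6.88 and 7.04 in wild-type tumors, 7.39, 6.51 and 6.59 in Dnmt3b-deficient tumors and 6.54 and 6.88 in pre-tumor samples. All arrays with MYC lay above all normal ones. The rise was 1.50 in wild-type tumors (2.83-fold, SE 0.24, adjusted p = 0.00482), 1.48 in Dnmt3b-deficient tumors (2.80-fold, SE 0.24, adjusted p = 0.00456) and 1.37 in pre-tumor samples (2.58-fold, SE 0.27, adjusted p = 0.0124, but 0.105 without pre-tumor replicate 2).

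**Figure D3:**
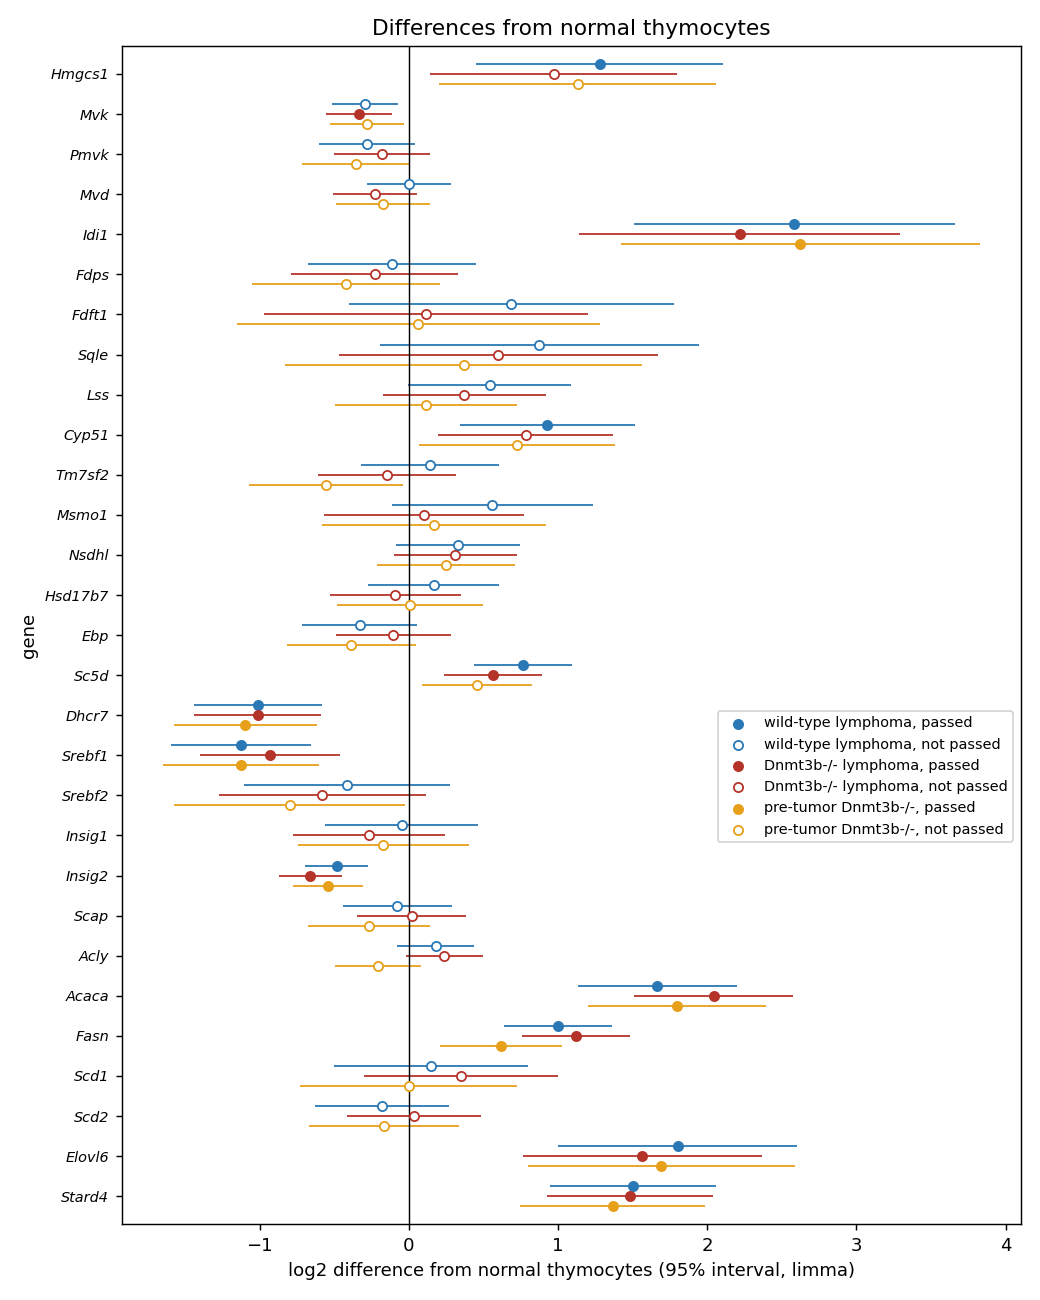
Log2 difference from normal thymus (x axis, with 95% intervals from limma) of each of the 29 genes (y axis, in role order) in wild-type tumors, Dnmt3b-deficient tumors and pre-tumor samples; filled points passed at an adjusted p under 0.05. The filled points to the right are led by Idi1 (up to 2.62) and those to the left by Srebf1 (down to -1.12), and the 3 groups share the normal arrays.

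Between the lymphoma genotypes, which differ in Dnmt3b and in Cre together, none of the 29 genes passed. No gene passed limma at an adjusted p under 0.05 in either direction, where 0.00346% of all probe sets passed as higher and 0.00346% as lower in Dnmt3b-deficient tumors. None had an unadjusted p under 0.05, beside 3.63% of all probe sets higher and 2.67% lower. All 29 overlapped between the genotypes, where 4.64% of all probe sets lay wholly higher and 3.34% wholly lower. The differences, as Dnmt3b-deficient minus wild-type, ran from -0.57 for Fdft1 (95% interval -1.66 to 0.52) to 0.38 for Acaca (-0.16 to 0.91). The intervals of Idi1 (-1.44 to 0.71), Fasn (-0.24 to 0.49), Srebf1 (-0.28 to 0.66) and Insig2 (-0.39 to 0.03) also contained 0. They differ in width, so that a fall of 1 log2 unit lay within the interval of Idi1 but outside that of Insig2. By sign, 20 genes were lower and 9 higher in Dnmt3b-deficient tumors, with a median of -0.14; over all probe sets 10485 were lower and 13176 higher, with a median of 0.00. The 5 mevalonate enzymes had a median of -0.23 and the 6 fatty acid enzymes one of 0.16.

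**Figure D4:**
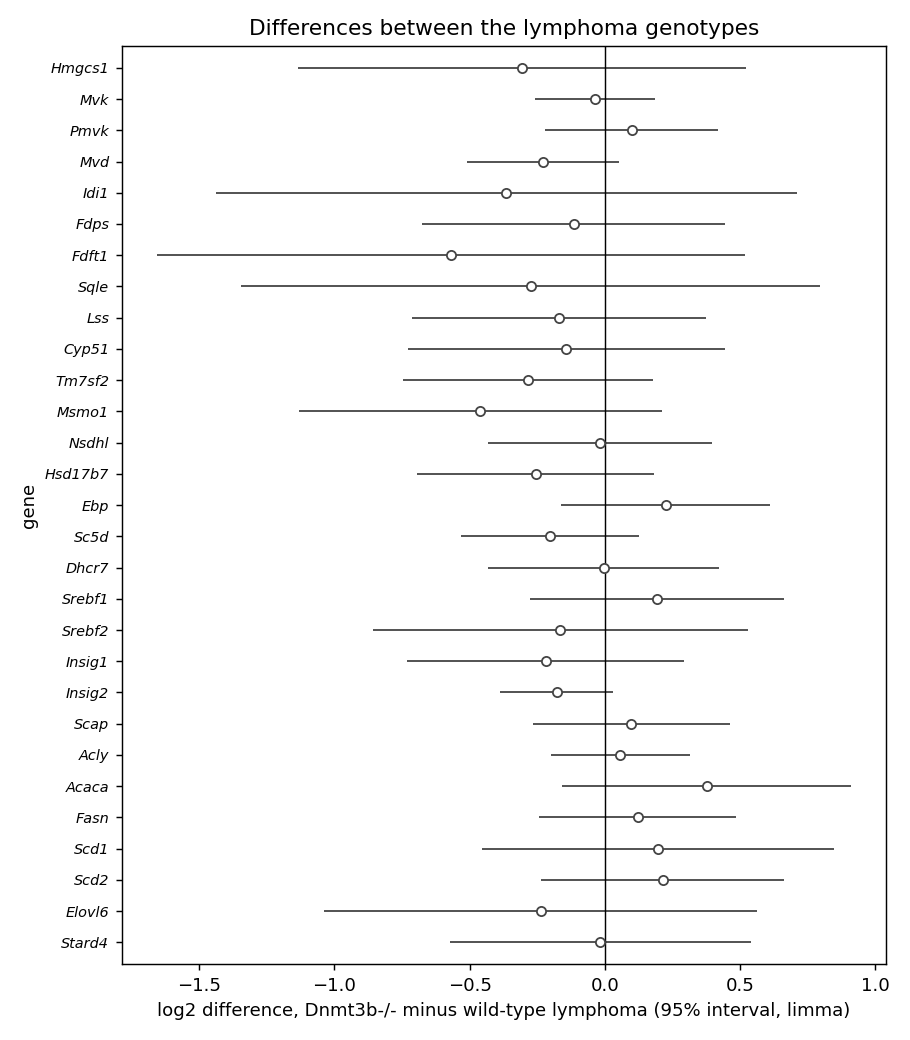
Log2 difference between Dnmt3b-deficient and wild-type tumors (x axis, with 95% intervals from limma, n = 3 each) for each of the 29 genes (y axis); open points did not pass. Every interval contains 0, and the widest belong to Fdft1, Idi1 and Sqle.

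A single tumor stood apart from its group in many of these genes. Dnmt3b-deficient replicate 1 was the highest of its 3 arrays in 21 of the 29 genes (72.4%) and the lowest in 2, whereas over the 20650 probe sets without ties it was the highest in 37.8%. Among the 17 sterol enzymes it was the highest in 12 and the lowest in 0. Fdft1 stood at 8.42 in this tumor and at 6.78 and 6.73 in the others, beside 8.22, 8.12 and 7.30 in wild-type tumors. Without it the genotype difference became -1.13 for Fdft1 (adjusted p = 0.476), -0.85 for Sqle (0.484) and -0.77 for Msmo1 (0.591). This tumor had the lowest mean of the T lineage markers in its group (8.07, against 8.47 and 8.72), but these markers were mixed. Cd3d, Cd3g, Cd2, Cd5 and Lat were lowest in it, led by Cd5 (5.92, against 8.79 and 8.87). Cd3e and Thy1 were highest in it, and Cd247 and Zap70 lay between the others. Its mean of the double-positive markers was the highest of its group (6.49, against 6.31 and 6.22), and its neutrophil marker mean of 4.10 the lowest. The part of cell composition was not tested. The median SD of the 29 genes was 0.15 in normal thymus, 0.23 in wild-type and 0.37 in Dnmt3b-deficient tumors, beside 0.15, 0.16 and 0.19 over untied probe sets. Wild-type replicate 1 was the lowest of its group in 18 of the 29 genes (62.1%, beside 36.8% of untied probe sets).

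Pre-tumor samples carry MYC and lack Dnmt3b as the Dnmt3b-deficient tumors do, and 0 of the 29 genes passed between them, where 0.0311% of all probe sets were higher and 0.0380% lower in the lymphomas by limma. At an unadjusted p under 0.05, 2 genes were higher (5.69% of all probe sets) and 0 lower (3.74%): Acly, by 0.44 (adjusted p = 0.299), and Fasn, by 0.50 (adjusted p = 0.422). The differences reached down to -0.40 for Idi1. Wild-type tumors differ from pre-tumor samples in genotype and stage together, and again 0 genes passed limma (0.0276% of all probe sets higher and 0.0795% lower). At an unadjusted p under 0.05, 2 were higher (4.43%) and 0 lower (3.34%): Tm7sf2, by 0.70 (adjusted p = 0.442), and Acly, by 0.39 (adjusted p = 0.448). The lowest difference was -0.13 for Acaca. Sorting and age go with stage here and cannot be told apart from it, and the pre-tumor group has 2 samples.

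Genes beside these 29 in lipid metabolism were read from 4 lists. Their counts are to be read against the shares of all probe sets, of which 9.58%, 9.70% and 9.69% rose and 10.3%, 10.5% and 9.88% fell in wild-type tumors, Dnmt3b-deficient tumors and pre-tumor samples. Among genes of sterol sensing, uptake, storage and export, falls predominated: of 16 measured (22 listed), 10 fell and 1 rose in wild-type tumors, 10 fell and 2 rose in Dnmt3b-deficient tumors and 9 fell and 0 rose in pre-tumor samples, with medians of -1.08, -1.15 and -1.06. Abcg1, a cholesterol exporter, fell, with differences of -2.45, -1.59 and -1.75 (adjusted p = 0.00357, 0.0184 and 0.0215), and Gramd1a, which carries cholesterol from the plasma membrane to the endoplasmic reticulum, fell too, with differences of -1.95, -1.95 and -0.97 (0.00171, 0.00142 and 0.0377). Lipa, the lysosomal lipase that frees cholesterol, fell by 3.35 in Dnmt3b-deficient tumors (0.0214), with differences of -2.30 and -2.32 in wild-type tumors and pre-tumor samples that did not pass (0.0839 and 0.115). Markers of macrophages, a cell type rich in Abcg1 and Lipa, averaged 4.88 to 5.14 in normal thymus, 4.51 to 5.73 in wild-type tumors, 4.28 to 4.89 in Dnmt3b-deficient tumors and 4.12 to 4.25 in pre-tumor samples, and their part was not tested.

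Of the other sterol and isoprenoid genes (6 measured of 11 listed), 2 rose and 1 fell in wild-type tumors, 3 rose and 0 fell in Dnmt3b-deficient tumors, and 3 rose and 1 fell in pre-tumor samples. Nus1, a subunit of the enzyme that makes dolichol, rose in wild-type tumors, Dnmt3b-deficient tumors and pre-tumor samples by 1.22, 1.49 and 1.13 (adjusted p = 0.00310, 0.00129 and 0.00785), and Coq2, of ubiquinone synthesis, by 0.61, 0.65 and 0.51. Dhdds rose in Dnmt3b-deficient tumors by 0.37, and Ggps1 in pre-tumor samples by 0.83. Lbr, a sterol reductase of the nuclear envelope, fell by 0.66 in wild-type tumors and by 0.87 in pre-tumor samples (0.0141 and 0.00850), with a difference of -0.28 in Dnmt3b-deficient tumors (0.220).

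Of the other fatty acid and lipid synthesis genes (31 of 33 measured), 5 rose and 6 fell in wild-type tumors, 10 rose and 6 fell in Dnmt3b-deficient tumors, and 5 rose and 5 fell in pre-tumor samples. The 10 that rose in Dnmt3b-deficient tumors are 32.3% of the list, and the other counts 16.1% to 19.4%. Of all probe sets, 9.58% to 9.70% rose and 9.88% to 10.5% fell. Fads2, a desaturase of polyunsaturated fatty acids, fell in these groups, with differences of -2.82, -2.36 and -1.70 (adjusted p = 0.000252, 0.000269 and 0.00218), from 7.27 to 7.53 in normal thymus to 4.46 to 4.71 in wild-type tumors. Acsl4, which activates fatty acids with CoA, rose by 1.26, 1.21 and 1.52 (0.00467, 0.00504 and 0.00478). Hacd2, a dehydratase of fatty acid elongation, rose by 1.40 in Dnmt3b-deficient tumors (0.00684). Of 19 measured fatty acid oxidation genes (20 listed), 6 rose (31.6%) and 0 fell in wild-type tumors. In Dnmt3b-deficient tumors 6 rose (31.6%) and 2 fell (10.5%), and in pre-tumor samples 2 rose (10.5%) and 3 fell (15.8%). Cpt1a, which admits fatty acids to mitochondria, rose by 1.49 and 1.58 in the lymphomas (0.000631 and 0.000385), with a pre-tumor difference of 0.45 (0.0603). Decr1 rose by 1.19, 0.73 and 0.66, and Eci1 by 0.82 and 1.17 in the lymphomas.

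**Figure D5:**
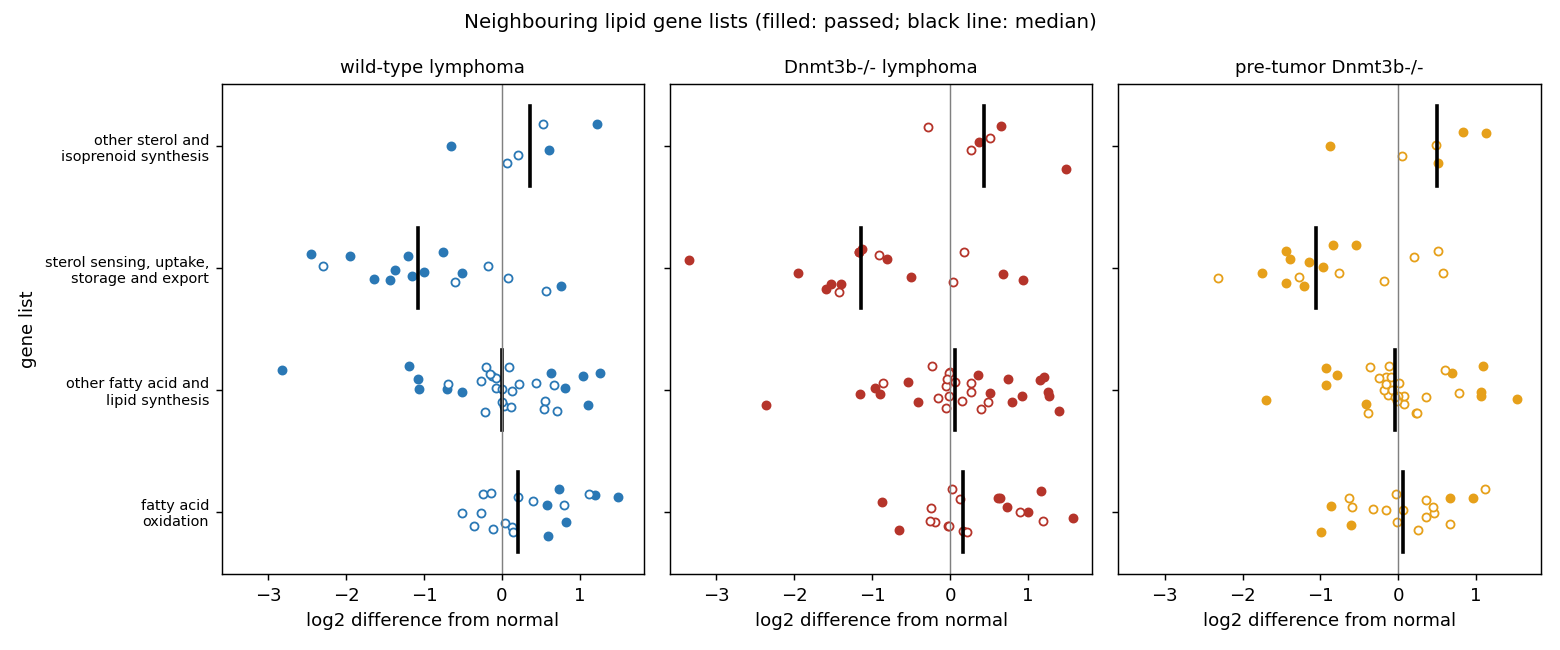
Log2 difference from normal thymus (x axis) of the genes of 4 neighbouring lipid lists (y axis) in wild-type tumors, Dnmt3b-deficient tumors and pre-tumor samples; each point is a gene, filled where it passed, and black lines are medians. The list of sterol sensing, uptake, storage and export lies to the left, with medians of -1.08, -1.15 and -1.06, and the other lists straddle 0.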

How the data were processed

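RNA from 11 thymus samples in 4 groups was measured on Affymetrix whole-transcript arrays, with 300 ng of RNA per array, per the labels' protocols. The deposited values are log2 expression values, 1 column per array; per the submitters' processing notes they come from Partek and RMA, and the order of steps and versions are not given in the sources used here. Values stop at log2 of 10, where 23.6% to 25.7% of each array lies, so a gene near the floor has only an upper limit. Arrays have no read depth, and their number limits the precision. Of 35512 probe sets, 6573 below the first annotated ID were left out. Names come from the platform annotation: 21789 of the 28939 tested have 1 symbol, 1621 several and 5529 none. Symbols were checked against RefSeq (GRCm38.p6), which also supplied the promoter windows.

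One linear model over all 4 groups was fitted with limma 3.58.1 in R 4.3.3 (lmFit, eBayes), with 0.46 prior and 7 residual degrees of freedom. Adjusted p-values are Benjamini-Hochberg over all tested probe sets, in each of 6 comparisons. Every gene of the set is named, with values in every array for the SREBP controllers and up to 2 genes per role with the largest difference past the threshold, plus Fasn and Sc5d, and some values of Fdft1, Sqle and Scd1, added after they were seen; from each other list, up to 3 genes with the largest difference past the threshold in any comparison are named, plus Coq2 and Dhdds, added likewise. The genes and lists were chosen with earlier results of these data known. Data were simulated for wild-type lymphomas against normal thymocytes over 28939 probe sets. The test recovered 56 of 100 changes of 1 log2 unit and 82 of 100 of 2, with 9 false calls. Only 100 simulated probe sets changed at each size, whereas 2773 rose and 2982 fell in the measured comparison. These rates therefore need not hold for the measured data. Alternatives were a replicate block, other normalizations and moderation, filters, thresholds, choice of probe set and leaving out each array. Correlations of deviations from the group means ran from -0.33 to 0.32 for same-numbered samples and from -0.32 to 0.33 for others. Deviations cancel out within such small groups, so this check can hardly show pairing. The titles give only biological replicate numbers, and these were not taken as pairs.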

Additional observations from a re-analysis of the deposited data

How the results depend on the processing

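Each count of genes past the threshold was recomputed under 25 other settings. Shares of all probe sets are given above for the main setting only. A change in count is therefore not known to be particular to these genes. In the main setting 11 genes passed in wild-type tumors against normal, 10 in Dnmt3b-deficient tumors and 8 in pre-tumor samples. Asking for a log2 difference of at least 1 left 7, 6 and 6. An adjusted p under 0.01 left 9, 5 and 1. With the replicate number as a block the counts were 10, 8 and 4, with no call in the other 3 comparisons. The numbers are not known to pair the samples. With the 2 compared groups alone the counts were 12, 7 and 4. Leaving out 1 array at a time gave 9 to 12, 5 to 11 and 1 to 9. The Dnmt3b-deficient count was 6, 5 and 6 without normal replicate 1, normal replicate 2 and Dnmt3b-deficient replicate 2, and the pre-tumor count was 1, Acaca, without pre-tumor replicate 2. Comparisons between lymphoma genotypes and of lymphomas with pre-tumor samples gave 0 in all 25 settings. Of 29 calls, 15 held in every fit that left out 1 array, and none changed sign in any setting. Of the 101 single differences followed, which are the 29 genes against normal and those named in the other comparisons, 17 turned sign in some setting, and none of the 17 passed. Against normal, quantile normalization gave -0.033 for Mvd in wild-type tumors, -0.017 and -0.050 for Scap and Scd2 in Dnmt3b-deficient tumors and -0.083 for Hsd17b7 in pre-tumor samples, median centring gave 0.0030 for Insig1 in wild-type tumors, and the replicate block gave -0.16 for Fdft1 in pre-tumor samples. Leaving out 1 array gave, in wild-type tumors against normal, -0.088 to 0.088 for Mvd, -0.29 to 0.078 for Fdps, -0.076 to 0.33 for Hsd17b7, -0.18 to 0.10 for Insig1 and -0.20 to 0.037 for Scap. In Dnmt3b-deficient tumors it gave -0.44 to 0.41 for Fdft1, -0.21 to 0.40 for Msmo1, -0.19 to 0.025 for Ebp, -0.053 to 0.098 for Scap and -0.18 to 0.25 for Scd2, and in pre-tumor samples -0.024 to 0.14 for Fdft1, -0.0026 to 0.24 for Lss and -0.014 to 0.032 for Hsd17b7. Dnmt3b-deficient against wild-type tumors gave -0.78 to 0.17 for Idi1 and -0.85 to 0.14 for Sqle, and Dnmt3b-deficient tumors against pre-tumor samples -0.82 to 0.13 for Idi1, positive in each case without Dnmt3b-deficient replicate 3. Acaca in wild-type tumors against pre-tumor samples was 0.0051 with the replicate block and -0.31 to 0.047 with 1 array left out. Among single genes, 101 of 2525 recomputed values lost a call and 15 gained one; the causes were not tested beyond the samples removed. The probe set at the gene's own locus, an alternative chosen after seeing the data, kept the counts at 11, 10 and 8.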
